A study of Mus musculus with 15 samples.

Results

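The circadian clock genes Clock, Per1, Per2, Per3, Cry1, Cry2, Nr1d1, Nr1d2, Dbp and Tef were followed across sorted mouse hepatocytes to compare their spread between mice with their spread between ploidy populations. These 10 genes were taken by symbol from the 55984 genes in the deposited counts, and all 10 were among the 17488 genes that passed the filter on low counts. Hepatocytes had been isolated by collagenase perfusion from livers of WT adult male C57BL/6JJcl mice kept in a light-dark cycle. They were stained with the DNA dye Hoechst in warm medium with serum and reserpine, then sorted by flow cytometry for RNA-seq. The 2n-whole and 4n-whole populations held the diploid and tetraploid cells, and 4n-top and 4n-bottom were the tetraploid cells with a higher and a lower peak of Hoechst fluorescence. These gates enriched for mononucleated and binucleated cells without purifying them, and 4n-top cells had passed a single round of sorting. Mice 1 to 4 gave libraries of 2n-whole, of 4n-whole and of 4n-bottom (n = 4 each), whereas 4n-top came from mice 2, 3 and 4 only (n = 3). The study left out the 4n-top sample of mouse 1 because its RNA was of poor quality. The libraries of a mouse were parts of 1 animal, and after sorting the 2n cells were centrifuged at a higher speed than the 4n cells. The hour at which each mouse was used, and its age within the range of weeks that the study gives, are not given in the sources used here. Neither hour nor age can therefore be told apart from the mouse in any difference between mice.

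The mammalian circadian clock is a transcriptional feedback loop that runs in nearly every cell, hepatocytes included. CLOCK pairs with BMAL1 and activates genes through E-box sequences, among them the Per and Cry genes, whose proteins then repress this activator, and Nr1d1 and Nr1d2, whose REV-ERB proteins repress the transcription of Bmal1. Dbp and Tef encode PAR bZIP transcription factors, which carry the rhythm to liver genes through D-box sequences, and the RNA levels of most of these genes depend on the time of day.

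Stretches of promoter that hold the letters read by these factors are shown because the members are known as their targets. In the RefSeq promoter table (build GRCm38.p6; 250 bases before to 50 bases after a start site), 9 of the 10 genes were matched, all but Per2, with 13 start sites. On both strands, the E-box CACGTG was found in promoters of 3 of these 9 genes and in 7.15% of all 32851 promoters, and the D-box TTATGTAA in 1 of the 9 and in 0.938% of all promoters. Here and below, members were counted by gene, with a match at any of its start sites, and the background by single promoter. A gene with several start sites has more chances of a match, so the member and background shares are not on the same scale. Each window below was placed on GRCm39 by an exact match, runs 5′ to 3′ on the strand of its gene, and has the motif in capitals. The Per1 window (chr11:68989597-68989626, plus strand) lies in an exon of Per1 and of the antisense gene Gm72400, and the Cry1 window (chr10:85020961-85020990, minus strand) lies in an exon of Cry1. Of the windows of Tef, the first (chr15:81686735-81686764, plus strand) lies in exons of Tef and of antisense Gm17597, and the second (chr15:81695465-81695494, plus strand) lies inside Tef but in no exon. The Per3 windows (chr4:151129309-151129338 and chr4:151129262-151129291, minus strand) lie before the gene, the first in an exon of Gm69444 on the other strand and the second in no annotated gene.
Per1 E-box: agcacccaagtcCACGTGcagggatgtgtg
Cry1 E-box: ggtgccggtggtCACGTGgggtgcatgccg
Tef E-box at the first start site: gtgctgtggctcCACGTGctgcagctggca
Tef E-box at the second start site: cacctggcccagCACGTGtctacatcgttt
Per3 D-box farther from the start: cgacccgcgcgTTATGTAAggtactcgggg
Per3 D-box nearer to the start: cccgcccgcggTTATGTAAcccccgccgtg
Counted from the start site to the first motif base, the E-box stood at -166 in Per1, at -60 in Cry1 and at -127 and -138 in Tef, and the D-boxes of Per3 stood at -205 and -158. The letters AGGTCA, part of the elements bound by nuclear receptors such as the REV-ERBs, were in promoters of Clock, Per1 and Nr1d2 (3 of 9) and in 16.3% of all promoters. The letters AGAACA, part of the glucocorticoid response element, were in a promoter of Tef (1 of 9) and in 19% of all promoters. The D-box variant TTACGTAA (0.119% of all promoters) and the cAMP response element TGACGTCA (1.79%) were in 0 of the 9. No match in a member overlapped another. A match is a run of letters and not a measured binding site, and other parts of these genes were not searched.

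Total counts ranged from 22049498 to 42096421 per library, so that 3 counts, taken as the lowest detectable level, were worth 0.0693 to 0.120 CPM (counts scaled to a common library size after TMM normalization), a limit that covers counting error only. The labelled cell type was checked on its markers. The summed level of 6 hepatocyte markers, among them Alb and Ttr, was 71471 to 100389 CPM, against 2.65 to 20.8 CPM for 6 sinusoidal endothelial markers and 0.374 to 7.36 CPM for the Kupffer and immune markers. It was 1.77 to 5.18 CPM for the stellate markers and 16.404 to 47.4 CPM for the cholangiocyte markers, and of the tested markers 0 were at 0 counts in every library. The cholangiocyte sum was mostly Sox9 (14.3 to 37.0 CPM). Spp1 had 0.467 to 13.4 CPM, and Krt19 and Epcam had at most 1.33 and 0.765 CPM. These are bulk samples, in which fewer cells of a type and less RNA per cell cannot be told apart.

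Set per kilobase of exon (GENCODE M39, all transcripts of a gene merged), the mean level over the 15 libraries was highest for Nr1d1, at 9.81 ± 6.42 CPM per kb (SD, n = 15 libraries). That rank rests on mouse 1, where the mean of Nr1d1 was 22.1 CPM per kb and that of Cry1 5.06 CPM per kb (n = 3 libraries). In mice 2, 3 and 4 the mean of Cry1, at 7.95, 11.1 and 8.87 CPM per kb, was above that of Nr1d1, at 7.16, 7.16 and 5.92 CPM per kb (n = 4 libraries each). Cry1 (8.47 ± 2.29), Clock (6.01 ± 0.947), Tef (4.65 ± 1.47), Cry2 (4.53 ± 0.930), Per1 (2.91 ± 2.99), Per2 (2.80 ± 0.949) and Nr1d2 (2.39 ± 0.717) followed on the same scale over all libraries. Per3, at 0.353 ± 0.147 CPM per kb, and Dbp, at 0.167 ± 0.122 CPM per kb, were lowest. Neighbours in this order overlapped in the range of their libraries, except that the highest Per3 library (0.579) lay below the lowest Nr1d2 library (1.34). The level of Per1 spread from 0.521 to 9.15 CPM per kb and that of Nr1d1 from 5.51 to 22.8 CPM per kb, the widest ranges of the 10 genes.

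Most clock genes differed between mice, and none was called between populations by edgeR. An edgeR quasi-likelihood F test with population and mouse in the same model found a difference between mice for 8 of the 10 genes at a Benjamini-Hochberg adjusted p under 0.05, where 19.2% of all tested genes passed. The exceptions were Clock and Dbp. Between populations 0 of the 10 passed, where 1.95% of all tested genes did. By the unadjusted p of the edgeR test between populations, 1 clock gene (Clock) fell under 0.05, against 13% of all genes, and DESeq2 with the mouse in the model called 0. With ComBat-seq, the study's adjustment for mice, before DESeq2, Clock alone was called between populations. The p-values between mice compare these 4 animals through their sorted parts, which are not separate animals. The same limit holds for the SE and confidence interval of a mouse's difference from the other mice, given below. They cover the spread of sorted parts and not that between animals. Such differences are printed for the mouse that stood highest or lowest in the gene, picked after the values were seen. The members were chosen with earlier results of these data known, so the shares of all genes here and below are background and not an independent test.

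On the log2 CPM scale, the SD of the 4 mouse means, each adjusted for population, was compared with the SD of the 4 population means, each adjusted for mouse. It was the wider of the pair for 9 of 10 clock genes, all but Dbp, against 66.4% of all tested genes. The median SD between mice was 0.52 for the clock genes and 0.29 for all genes, while the median SD between populations was 0.13 for the clock genes and 0.21 for all genes. Per1 had the widest spread between mice (SD 1.46 against 0.20 between populations), followed by Nr1d1 (0.85 against 0.11) and Per3 (0.65 against 0.22). Tef had the most unequal pair, with an SD of 0.52 between mice and 0.03 between populations. Clock stood near equality (0.15 against 0.15) and Dbp below it (0.58 against 0.67).

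**Figure D1:**
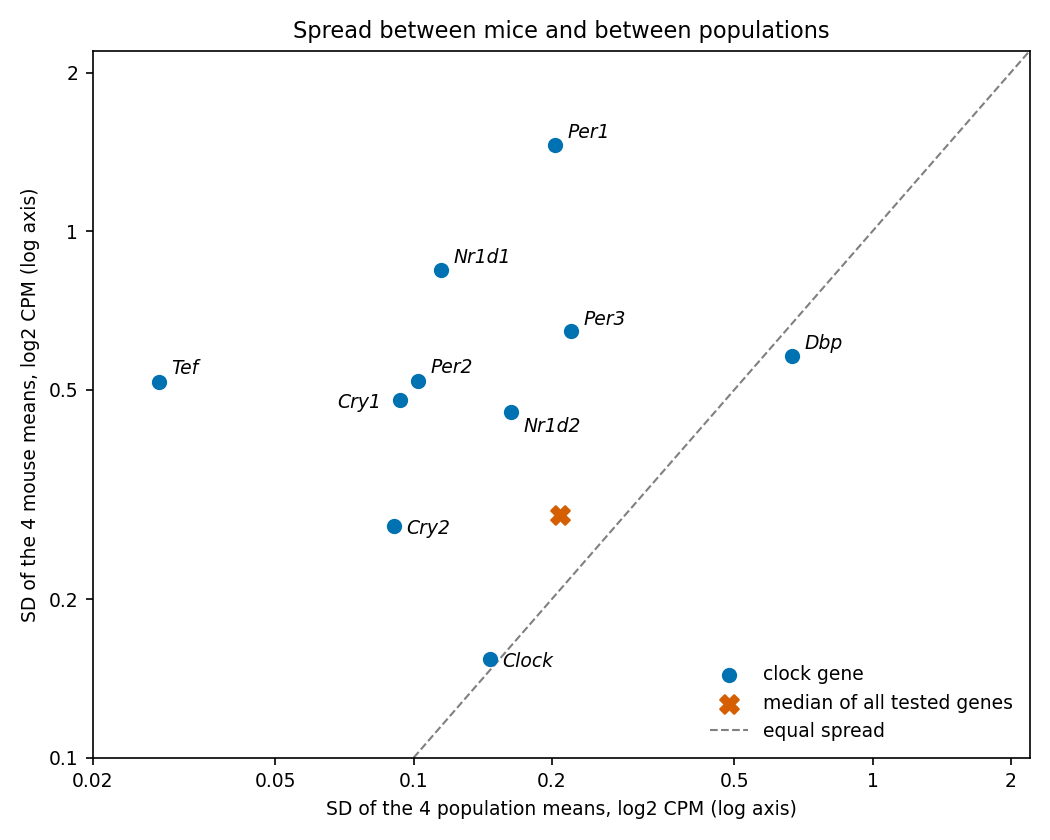
Spread of each clock gene between mice (vertical) against its spread between populations (horizontal), both as the SD of 4 adjusted means of log2 CPM on log axes; the cross is the median of all 17488 tested genes and the dashed line marks equal spread. Of the 10 genes 9 lie above the line, Per1 highest at 1.46 and Tef farthest left at 0.03, and Dbp lies below it.

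In 6 of the 10 genes (Per1, Per2, Cry1, Cry2, Nr1d1 and Tef) at least 1 mouse had libraries that did not overlap those of the other mice, in any population, whereas 9.42% of all tested genes had such a mouse. A population with libraries apart from all others was found for 0 of the 10 genes and for 1.4% of all tested genes.

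**Figure D2:**
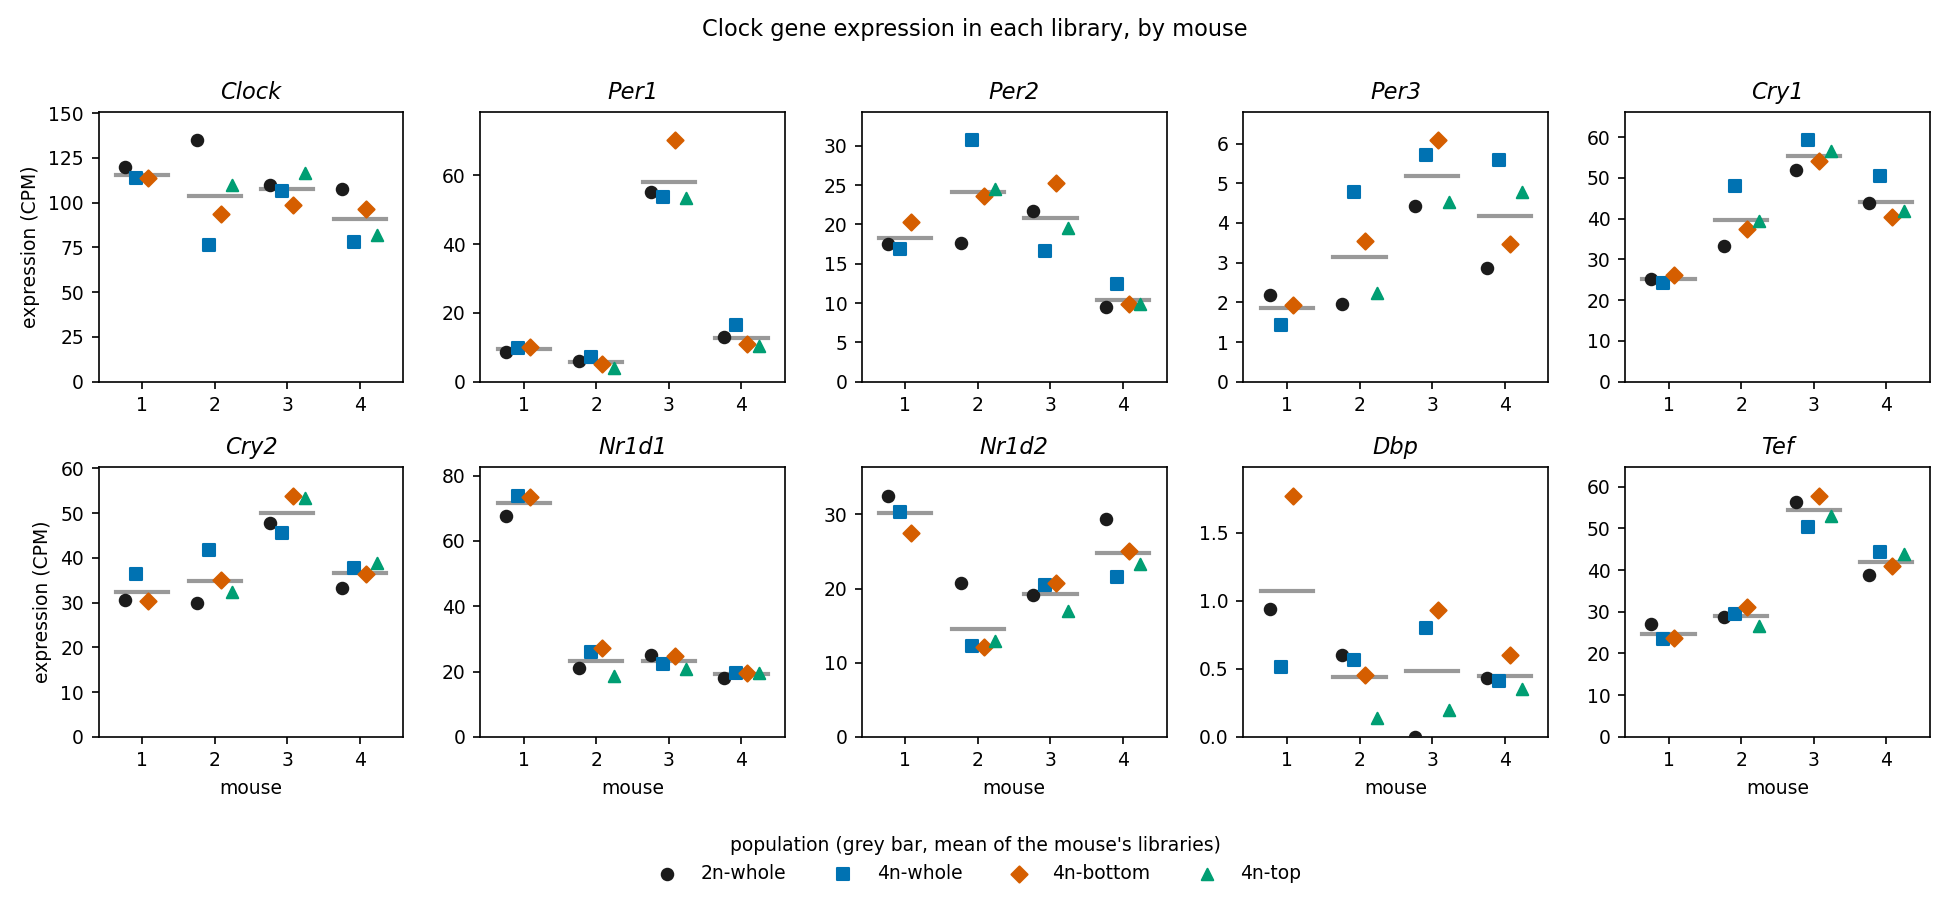
Expression of the 10 clock genes in CPM (linear axes from 0) in each of the 15 libraries, grouped by mouse on the horizontal axis; symbols mark the population and grey bars the mean of the mouse's libraries. Symbols of 1 mouse cluster and mice part in Per1 (mouse 3 at 53.5 to 70.1 CPM), Nr1d1 (mouse 1 at 67.6 to 73.9 CPM) and Tef (mouse 3 at 50.3 to 57.9 CPM), while in Clock and Dbp no mouse lies apart from all the others.

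Clock, which encodes the DNA-binding partner of BMAL1 in the activator, had the smallest spread between mice. Its expression was 113 to 120 CPM in mouse 1 (n = 3 libraries), 76.2 to 135 CPM in mouse 2, 98.6 to 116 CPM in mouse 3 and 78.1 to 107 CPM in mouse 4 (n = 4 libraries each). No mouse lay apart from all the others, but every library of mouse 1 was above every library of mouse 4. The F value was 3.42 between mice (adjusted p = 0.12, edgeR) and 3.59 between populations (adjusted p = 0.29, edgeR). Leaving out mouse 2 gave an adjusted p of 0.038 between mice, and leaving out only its 4n-whole library, the shallowest of the series, gave 0.044 (edgeR).

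Per1, a period gene whose protein represses CLOCK-BMAL1 and whose RNA also responds quickly to hormones such as glucocorticoids, had an F value of 233 between mice, rank 5 of the 17488 tested genes (adjusted p = 1e-15, edgeR). In mouse 3 it was expressed at 55.1 CPM in 2n-whole, 53.7 CPM in 4n-whole, 70.1 CPM in 4n-bottom and 53.5 CPM in 4n-top. Mouse 2 had 6.10, 7.22, 5.25 and 3.99 CPM in the same order of populations. Mouse 1 had 8.65, 9.83 and 10.0 CPM in 2n-whole, 4n-whole and 4n-bottom, and mouse 4 had 13.1, 16.37, 11.0 and 10.3 CPM in all 4 populations. The 4 mice did not overlap in any library, with mouse 2 lowest, then mouse 1, mouse 4 and mouse 3. Within each population, mouse 3 was 4.82 to 8.00 times the mean of the other mice (4 of 4 populations), and its log2 difference from the mean of the other 3 mice was 2.77 (SE 0.11, 95% confidence interval 2.55 to 2.99). Without mouse 3 the other mice still differed (adjusted p = 2.1e-05, edgeR).

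Per2, the second period gene, was lowest in mouse 4. Its expression there was 9.48 CPM in 2n-whole, 12.5 CPM in 4n-whole, 9.90 CPM in 4n-bottom and 9.86 CPM in 4n-top. The other mice had 16.7 to 30.7 CPM and overlapped each other, with the highest library in mouse 2 (4n-whole). The log2 difference of mouse 4 from the mean of the others was -0.999 (SE 0.14, 95% confidence interval -1.28 to -0.72; F = 21.3, adjusted p = 1.2e-05 between mice, edgeR). When mouse 4 was left out, the adjusted p between the remaining mice was 0.25 (edgeR).

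Per3, a period gene with a lesser part in the core loop, was the least abundant of the period and cryptochrome genes, with 56 to 214 counts per library. Its level was 1.44 to 2.19 CPM in mouse 1, 1.96 to 4.77 CPM in mouse 2, 4.42 to 6.08 CPM in mouse 3 and 2.87 to 5.59 CPM in mouse 4. Mice 1 and 3 did not overlap each other, but both overlapped mouse 2. The F value between mice was 7.79 (adjusted p = 0.0067, edgeR), and the adjusted p was 0.068 without mouse 1 and 0.091 without mouse 3 (edgeR).

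Cry1 and Cry2 encode cryptochromes, which repress CLOCK-BMAL1 together with the period proteins. Cry1 was expressed in mouse 3 at 51.8 CPM in 2n-whole, 59.2 CPM in 4n-whole, 54.0 CPM in 4n-bottom and 56.5 CPM in 4n-top. Mouse 1 had 25.1, 24.1 and 26.2 CPM in 2n-whole, 4n-whole and 4n-bottom. Mouse 3 lay above and mouse 1 below all libraries of mice 2 and 4, which ranged from 33.4 to 50.6 CPM and overlapped each other. The log2 difference from the mean of the other 3 mice was 0.65 (SE 0.08) for mouse 3 and -0.86 (SE 0.10) for mouse 1, with an F value of 30.9 between mice (adjusted p = 5.3e-07, edgeR).

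Cry2 was highest in mouse 3 too, at 47.7 CPM in 2n-whole, 45.5 CPM in 4n-whole, 53.9 CPM in 4n-bottom and 53.4 CPM in 4n-top. The other mice ranged from 29.8 to 41.9 CPM, below every library of mouse 3, and overlapped each other. The log2 difference of mouse 3 from the mean of the others was 0.54 (SE 0.09; F = 12.6, adjusted p = 0.00049 between mice, edgeR). Without mouse 3 the adjusted p was 0.68 (edgeR), so the call on Cry2 rested on mouse 3.

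Nr1d1, which encodes the nuclear receptor REV-ERB alpha, had an F value of 99.2 between mice, rank 40 of all tested genes (adjusted p = 5.8e-12, edgeR). Its expression in mouse 1 was 67.6 CPM in 2n-whole, 73.9 CPM in 4n-whole and 73.3 CPM in 4n-bottom. Mouse 2 had 21.1, 26.1, 27.1 and 18.5 CPM across 2n-whole, 4n-whole, 4n-bottom and then 4n-top. Mice 3 and 4 ranged from 20.6 to 25.0 CPM and from 17.9 to 19.7 CPM. Mouse 1 was apart from the other mice, with 3.08 to 3.26 times their mean in each of its 3 populations, and its log2 difference from them was 1.67 (SE 0.10, 95% confidence interval 1.47 to 1.87). Without mouse 1 the adjusted p between mice was 0.22 (edgeR). Nr1d1 overlaps the thyroid hormone receptor gene Thra by 3173 bases on opposite strands, and the strand setting of the counting is not given in the sources used here, so reads in the overlap could have been counted for either gene. Thra was lowest where Nr1d1 was highest, with 20.1 to 21.1 CPM in mouse 1 and 22.1 to 31.5 CPM in the other mice. It was not called between mice (F = 3.06, adjusted p = 0.15, edgeR), and the part of the overlap in the Nr1d1 values was not tested.

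Nr1d2 encodes REV-ERB beta, which shares targets with REV-ERB alpha. It was expressed at 32.5, 30.3 and 27.5 CPM in mouse 1 (2n-whole, then 4n-whole, then 4n-bottom). In mouse 2 it was 20.8 CPM in 2n-whole, 12.2 CPM in 4n-whole, 12.1 CPM in 4n-bottom and 12.9 CPM in 4n-top. Mouse 1 and mouse 2 did not overlap, while mouse 3 (17.0 to 20.8 CPM) and mouse 4 (21.6 to 29.3 CPM) lay between them and each overlapped one of them. The F value was 18.9 between mice (adjusted p = 3e-05, edgeR), with log2 differences from the other mice of 0.62 (SE 0.12) for mouse 1 and -0.76 (SE 0.12) for mouse 2. The 2 REV-ERB genes were thus both highest in mouse 1, but Nr1d1 was lowest in mouse 4 and Nr1d2 in mouse 2.

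Tef, whose protein binds D-box sequences, had an F value of 43.3 between mice (adjusted p = 2.4e-08, edgeR) and 0.126 between populations (adjusted p = 0.99, edgeR). Its expression in mouse 3 was 56.3 CPM in 2n-whole, 50.3 CPM in 4n-whole, 57.9 CPM in 4n-bottom and 53.1 CPM in 4n-top. Mouse 4 had 38.8, 44.3, 41.0 and 43.9 CPM in the same order. Mouse 1 had 27.0, 23.5 and 23.7 CPM in 2n-whole, 4n-whole and 4n-bottom, and mouse 2 had 28.8, 29.5, 31.1 and 26.6 CPM in all 4 populations. Mice 3 and 4 overlapped no other mouse, whereas mice 1 and 2 overlapped each other. The log2 difference from the mean of the other 3 mice was 0.81 (SE 0.08) for mouse 3 and -0.72 (SE 0.10) for mouse 1. Tef stayed called when any 1 mouse was removed, with adjusted p at most 4.1e-05 (edgeR).

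Dbp, the PAR bZIP gene known for one of the strongest daily rhythms of liver, had few counts in every mouse. It had 38, 20, 0 and 15 counts in the 2n-whole libraries of mice 1 to 4, and 20, 14, 30 and 13 counts in 4n-whole. In 4n-bottom it had 62, 19, 30 and 23 counts, and 6, 5 and 10 counts in the 4n-top libraries of mice 2, 3 and 4. The levels were thus at most 1.77 CPM, and the mice overlapped. The F value was 0.625 between mice (adjusted p = 0.77, edgeR) and 1.18 between populations (adjusted p = 0.78, edgeR). At this depth the log2 difference of mouse 1 from the other mice, 0.98, had a 95% confidence interval of -0.50 to 2.46.

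The mice did not keep 1 order across the genes. After adjustment for population, mouse 3 was highest in Per1, Per3, Cry1, Cry2 and Tef, mouse 1 in Clock, Nr1d1, Nr1d2 and Dbp, and mouse 2 in Per2. Mouse 1 was lowest in Per3, Cry1, Cry2 and Tef, mouse 2 in Per1 and Nr1d2, mouse 4 in Clock, Per2 and Nr1d1, and mouse 3 in Dbp. The cryptochromes, Per3 and Tef therefore had mouse 3 and mouse 1 at opposite ends, with mouse 1 at the high end of the REV-ERB genes. Clock and Dbp were not called between mice, so their order is a description only. For Dbp, the low place of mouse 3 includes a 2n-whole library with 0 counts. Its plain mean of Dbp, 0.482 CPM, was above those of mice 2 and 4 (0.440 and 0.449 CPM, n = 4 libraries each).

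**Figure D3:**
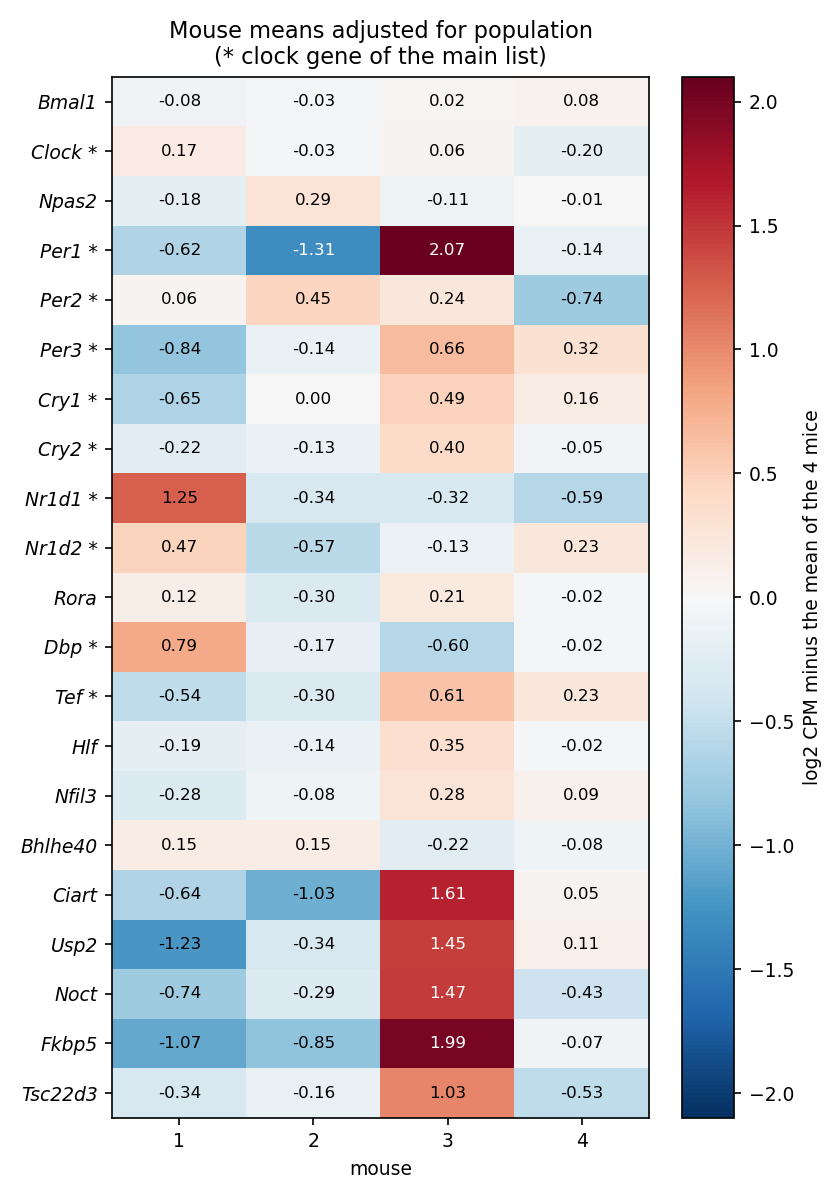
Log2 CPM of each mouse (columns) minus the mean of the 4 mice, adjusted for population, for the clock genes (marked with a star) and related genes (rows), with red above and blue below that mean. Per1, Fkbp5, Ciart, Usp2 and Noct have their highest value in mouse 3 (2.07 for Per1 and 1.99 for Fkbp5), Nr1d1 has it in mouse 1 (1.25), and Bmal1 stays within 0.08 in every mouse.

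In the pairwise comparisons of populations, 0 of the 10 clock genes were called, at an adjusted p under 0.05 and an absolute log2 fold change over 0.5, in any of the 4 edgeR tests. Over all tested genes, 3.47% were called in 4n-whole against 2n-whole, 0.0114% in 4n-top against 4n-bottom, 0.463% in 4n-bottom against 2n-whole and 0.961% in 4n-top against 2n-whole. DESeq2 with the mouse in the model called 0 clock genes in each. At an unadjusted p under 0.05 the edgeR tests gave 3, 1, 2 and 1 clock genes in this order, against 20.4%, 2.79%, 10.2% and 11.3% of all tested genes. The comparisons share libraries and are not independent of each other. The median absolute log2 fold change of the clock genes was 0.22, 0.12, 0.19 and 0.15 in the same order, against 0.30, 0.17, 0.22 and 0.25 over all tested genes.

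**Figure D4:**
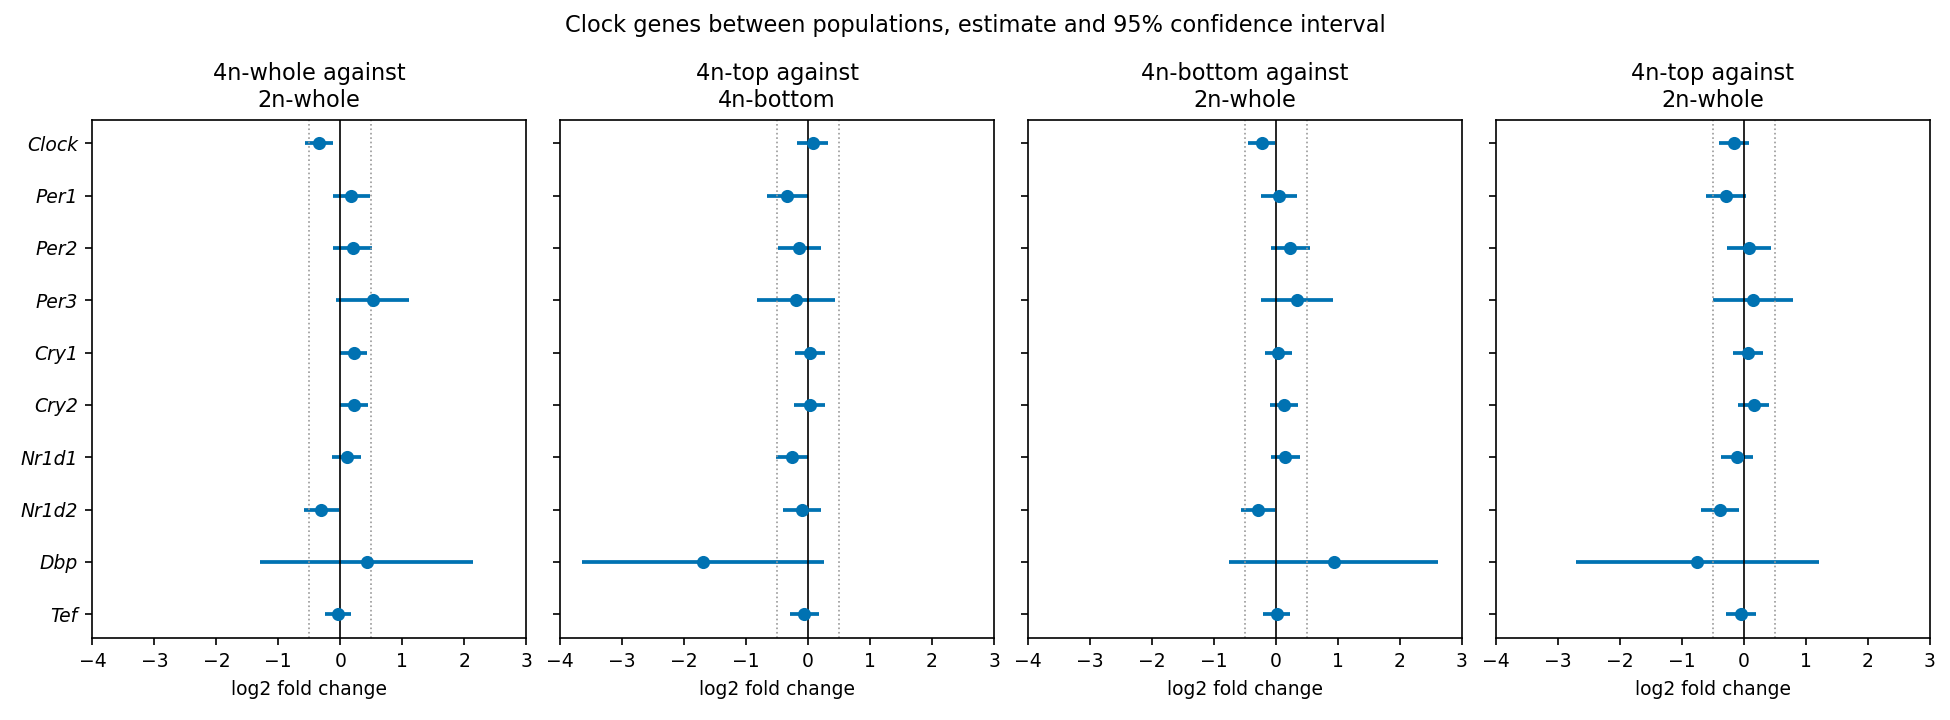
Log2 fold change of each clock gene in the 4 comparisons of populations (points, adjusted for mouse) with its 95% confidence interval (bars); dotted lines mark the fold limit of 0.5 in both directions. Intervals of Dbp reach from -3.64 to 2.62, while those of the other genes stay between -0.83 and 1.10.

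Clock came nearest to a difference between populations. It was expressed at 120, 135, 110 and 107 CPM in the 2n-whole libraries of mice 1 to 4 and at 114, 76.2, 106 and 78.1 CPM in 4n-whole. It was thus lower in 4n-whole in 4 of 4 mice, by little in mice 1 and 3, and the ranges of the populations overlapped. The log2 fold change was -0.35 (SE 0.11, 95% confidence interval -0.57 to -0.12, unadjusted p = 0.0036, adjusted p = 0.059, edgeR). Without mouse 2 it was -0.20, and without only the 4n-whole library of that mouse -0.24. With all libraries it was -0.23 in 4n-bottom against 2n-whole (adjusted p = 0.47, edgeR) and -0.16 in 4n-top against 2n-whole (adjusted p = 0.69, edgeR). With ComBat-seq before DESeq2, Clock was called in the test over all populations, but not in these pairwise comparisons, which also had the fold limit. Clock overlaps Tmem165 on the opposite strand by 16020 bases.

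Nr1d2 had log2 fold changes against 2n-whole of -0.31 in 4n-whole (SE 0.14, adjusted p = 0.19), -0.29 in 4n-bottom (SE 0.13, adjusted p = 0.46) and -0.38 in 4n-top (SE 0.15, adjusted p = 0.30), all from edgeR. Without mouse 2 the first was -0.15 and the second -0.13. None of these passed the test, and the 2n-whole libraries of mice 2, 3 and 4, at 20.8, 19.1 and 29.3 CPM, lay within the range of the 4n libraries. Within mice, the 2n-whole library was above every 4n library in mice 1, 2 and 4. In mouse 3 it was not, with 4n libraries at 17.0 to 20.8 CPM. Cry1 had a log2 fold change of 0.22 in 4n-whole against 2n-whole (SE 0.11, adjusted p = 0.24, edgeR), and 0.11 without mouse 2. Per1 had one of -0.33 in 4n-top against 4n-bottom (SE 0.16, 95% confidence interval -0.66 to -0.01, adjusted p = 1, edgeR), a size to set beside the 2.77 by which mouse 3 stood above the other mice in the same gene.

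4n-top had no library of mouse 1, so for Nr1d1 the plain means are given beside the difference within mice. The 4n-top mean of Nr1d1 was 19.6 ± 1.05 CPM (SD, n = 3), and that of 4n-bottom, whose mouse 1 library was at 73.3 CPM, was 36.2 ± 24.9 CPM (SD, n = 4). In mice 2, 3 and 4 the 4n-bottom libraries had 27.1, 24.8 and 19.6 CPM and the 4n-top libraries 18.5, 20.6 and 19.7 CPM. The fold change within mice was -0.26 on the log2 scale (SE 0.13, adjusted p = 1, edgeR).

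The intervals bound what these libraries could have missed. In 4n-top against 4n-bottom, 4n-bottom against 2n-whole and 4n-top against 2n-whole, the 95% confidence interval of the log2 fold change lay within 1 in both directions for 9 of 10 clock genes, all but Dbp. In 4n-whole against 2n-whole it did so for 8 of 10, with Per3 reaching 1.10 (estimate 0.52, SE 0.28) and Dbp 2.14. For Dbp in 4n-top against 4n-bottom, the interval ran from -3.64 to 0.26 around an estimate of -1.69.

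Other clock genes were grouped by role. For the counts called in these and the later gene groups, the shares of all tested genes were 19.2% between mice and 1.95% between populations (edgeR). Among the activators, Bmal1, the partner of CLOCK, stayed between 46.5 and 55.2 CPM in all 15 libraries (F = 0.896 between mice, adjusted p = 0.65, edgeR). Npas2, which can take the place of CLOCK, was called between mice (adjusted p = 0.027, edgeR), with a mean of 25.6 ± 2.81 CPM in mouse 2 (SD, n = 4 libraries) against means of 18.5 to 20.8 CPM in the others. Its adjusted p was 0.73 without mouse 2, 0.052 without mouse 1 and 0.11 without the 4n-whole library of mouse 2. Of the activators, 1 of 3 tested was thus called between mice and 0 between populations. All 5 period and cryptochrome genes, each a member described above, were called between mice and 0 between populations.

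Rora, which encodes a receptor that activates through the sites REV-ERB represses, was called between mice (adjusted p = 0.0049, and 0.22 without mouse 2, edgeR). It was the only clock gene called between populations in these lists, at 138 ± 13.4 CPM in 2n-whole, 95.4 ± 26.7 in 4n-whole, 104 ± 10.2 in 4n-bottom and 105 ± 17.6 in 4n-top (SD, n = 4, 4, 4 and 3; adjusted p = 0.0093, edgeR). Its p was 0.14 without mouse 4 and 0.81 without the mouse in the model (adjusted, edgeR).

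Among the PAR bZIP genes and Nfil3, which encodes a repressor acting at the same sites, 3 of 4 were called between mice and 0 between populations. Hlf, the third PAR bZIP gene, had its highest mean in mouse 3, as Tef did, at 35.2 ± 1.86 CPM (SD, n = 4) against 24.1 to 27.2 CPM (adjusted p = 0.0033, and 0.72 without mouse 3, edgeR). Nfil3 had a mean of 89.7 ± 4.72 CPM in mouse 3 (SD, n = 4) against 60.7 to 79.3 CPM (adjusted p = 0.0017, and 0.067 without mouse 3, edgeR). Of the other E-box repressors, 2 of 3 were called between mice. Ciart, which encodes a further repressor of CLOCK-BMAL1, was at 1.84 to 2.66 CPM in mouse 3 and at 0 to 0.980 CPM in the other mice (adjusted p = 0.015, and 0.65 without mouse 3, edgeR). Bhlhe40, a repressor that competes for E-boxes, was lowest in mouse 3, with a mean of 156 ± 5.32 CPM (SD, n = 4) against 172 to 204 CPM (adjusted p = 0.0073, and 0.16 without mouse 3, edgeR). Of 6 genes for kinases and ubiquitin ligases that act on clock proteins, 1 was called between mice (Gsk3b, adjusted p = 0.003, and 0.78 without mouse 3, edgeR). In both of these last groups 0 were called between populations. At an unadjusted p under 0.05 between populations stood Clock of the activators, Nfil3 of the PAR bZIP group and Csnk1e of the kinases, and 0 genes of the period and cryptochrome group and of the other E-box repressors (edgeR).

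Rhythmic output genes of liver differed between mice as well. Of 12 such genes, 11 were called between mice and 4 between populations (Nampt, Por, Elovl3 and Cyp7a1). Noct, which encodes a rhythmic phosphatase, was at 54.0 to 74.5 CPM in mouse 3 and 12.1 to 23.9 CPM in the other mice (adjusted p = 3.1e-12, and 0.23 without mouse 3, edgeR). Usp2, a deubiquitinase gene driven by the clock and named after its values were seen, was at 13.2 to 22.8 CPM in mouse 3 and 1.65 to 7.78 CPM in the others (adjusted p = 2.5e-09, edgeR). Alas1, the first enzyme of heme synthesis and a target of PAR bZIP factors, was lowest in mouse 3, at 170 to 210.0 CPM against 359 to 723 CPM (adjusted p = 7.3e-12, edgeR). Cyp7a1, the rate-limiting enzyme of bile acid synthesis, differed both between mice (adjusted p = 2.2e-07) and between populations (adjusted p = 8.6e-06, and 0.65 without the mouse in the model, edgeR), with means of 27.4 ± 16.9 CPM in 2n-whole and 72.8 ± 39.9 CPM in 4n-whole (SD, n = 4 each).

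Other gene groups that respond to hormones, temperature and feeding also differed between mice. All 6 glucocorticoid-induced genes were called between mice and 0 between populations. Fkbp5, a co-chaperone gene induced by glucocorticoids, was at 118 to 147 CPM in mouse 3 and 14.9 to 38.8 CPM in the other mice (F = 355, adjusted p = 2.2e-17, edgeR). Tsc22d3, another such target, was at 107 to 124 CPM in mouse 3 and 35.0 to 51.0 CPM elsewhere (adjusted p = 8.2e-12, and 0.078 without mouse 3, edgeR). Tat, Pck1 and Sgk1 also had their highest mean in mouse 3. The exception in this list was Dusp1, with its highest mean in mouse 1, at 196 ± 30.6 CPM (SD, n = 3). Its mean in mouse 3 was 151 ± 7.83 CPM (SD, n = 4). Tat, Sgk1 and Dusp1 were named after their values were seen. All 8 heat shock and cold-induced genes were called between mice and 1 between populations (Hspa1b). Hsp90aa1, a chaperone gene, was lowest in mouse 3, at 174 to 195 CPM against 375 to 522 CPM (adjusted p = 9.8e-11, and 0.52 without mouse 3, edgeR). Of the feeding and fasting genes, Ppargc1a and Igfbp1 were among those called both between mice and between populations. Fasn, a lipogenic enzyme gene, was at 560 to 681 CPM in mouse 3, below the 807 to 2857 CPM of the other mice (adjusted p = 4.1e-11, edgeR). Of 6 immediate early genes, 5 were called between mice and 0 between populations, although Fos, Jun, Junb and Ier2 had an unadjusted p under 0.05 between populations and DESeq2 called Jun (adjusted p = 0.049). What part any of these responses had in the clock gene values was not tested.

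Marker genes of other cells also varied between mice. Of the sinusoidal endothelial markers 4 of 6 were called between mice, and their sum was 10.6 to 14.1 CPM in mouse 1, 10.5 to 20.8 CPM in mouse 2, 2.87 to 11.7 CPM in mouse 3 and 2.65 to 9.396 CPM in mouse 4. Of the hepatocyte markers 3 of 6 were called between mice, with sums of 71471 to 82948 CPM in mouse 1, 79158 to 92992 CPM in mouse 2, 92290 to 100389 CPM in mouse 3 and 72513 to 87417 CPM in mouse 4. Of the Kupffer and immune markers 0 of 5 tested were called in either test, and of the stellate markers 0 of 5. Their unadjusted p was under 0.05 for Clec4f and Cd5l between mice and for Clec4f and Vsig4 between populations, and for 0 stellate markers (edgeR), and DESeq2 with the mouse in the model called Cd5l between mice (adjusted p = 0.014). Cholangiocyte markers were called between mice in 1 of 4 and between populations in 2 of 4 (Sox9 and Spp1), with Spp1 at 8.12 to 13.4 CPM in 2n-whole and 0.467 to 4.99 CPM in the 4n libraries. The part of these cells in the clock gene values was not tested.

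Genes with a pattern like that of a member were sought by Pearson correlation of log2 CPM over the 15 libraries, with population means taken out. These values are descriptions over libraries that share mice. For Dbp the highest were Zfp874b (0.893), Gtf3a (0.865), Cep41 (0.864), Ltb4r1 (0.863) and Gm36393 (0.861), and the lowest was Gm4468 (-0.918). With few counts of Dbp and means of 0.390 to 2.79 CPM for the 5 genes most like it, these resemblances rest on few counts. Per1 and Nr1d1 were added as references after their values were seen. The genes most like Per1 included Mt1, a metallothionein gene (0.978, mean 135 CPM), and, in the opposite direction, the lipid enzyme genes Acsl5 (-0.986) and Elovl6 (-0.978) and Alas1 (-0.974). Nr1d1 was most alike with Gm37400 (0.975), at a mean of only 0.0699 CPM, and with Cyp2c70 (0.935, mean 360 CPM), a cytochrome P450 of bile acid metabolism. Its lowest value was for Hhex (-0.966).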

How the data were processed

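RNA was extracted from sorted hepatocytes, and the authors aligned reads to GRCm39 with STAR (2.7.11a in the submitters' processing notes) and counted them per gene with featureCounts. The deposited values are raw counts, before the authors' ComBat-seq adjustment. The annotation, strand setting and handling of pairs and of reads with several places are not given in the sources used here. Of counts from 1 to 10, 74.2% to 81.4% per library were even, so a count may not be 1 fragment. No pair of libraries was identical.

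Counts were tested with edgeR 4.0.16 (R 4.3.3) by quasi-likelihood F tests after TMM normalization and the default filter (minimum count 10, minimum total 15), in 1 model of the 15 libraries with population and mouse as factors, with Benjamini-Hochberg adjustment over 17488 genes at 0.05. Pairwise calls also needed an absolute log2 fold change over 0.5. Spreads used log2 CPM (prior count 2), fitted by least squares. Libraries with the same subject number in the labels come from the same mouse. After population means were removed, the 21 same-mouse pairs had a mean correlation across genes of 0.158 (0.0845 to 0.227). Named genes were the 10 members, up to 3 genes per list with the smallest p between mice and 2 between populations, and the 5 genes most and least like Dbp. Some genes that this rule names are not reported here. The members and lists were chosen with earlier results of these data known.

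Alternatives were no mouse or no population in the model, DESeq2 1.42.0 with the mouse, ComBat-seq (sva 3.50.0) then DESeq2, DESeq2 size factors, no filter, fewer libraries, no fold limit, a prior count of 0.5 and each mouse left out. Leaving out the shallowest library and the resemblances to Per1 and Nr1d1 were added after seeing the data. The methods were tested on simulated data.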

Additional observations from a re-analysis of the deposited data

Results flagged for a closer look

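In the 4n-whole population Per3 stood apart in mouse 1, at 1.44 CPM against 4.77 to 5.70 CPM in the other 3 mice. On the log2 scale the gap to the nearest mouse was 0.869 of the whole range (Dixon's ratio, above its 95% critical value for 4 samples). It was 1 flag in 30 such tests (10 genes in the 3 populations with 4 libraries), and chance alone flags about 1 in 20.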

How the results depend on the processing

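Clock genes called between mice were 8 of 10 under every alternative that kept all 4 mice, except 9 without the shallowest library, and 6 (without mouse 1 or 3) to 9 (without mouse 2) with a mouse left out. Those wider between mice than between populations were 9, and 7 to 9 with a mouse left out. Between populations and in the pairwise comparisons 0 clock genes were called under all alternatives, except 1 between populations (Clock, adjusted p = 0.043) after ComBat-seq then DESeq2. Counts over all genes moved more, and the cause was not tested. Between populations, 341 genes became 1780 after ComBat-seq then DESeq2, 659 with DESeq2, 787 without the filter, 12 without the replicate block and 151 to 585 with a mouse left out (585 without mouse 3, 151 without mouse 4). In 4n-whole against 2n-whole, 607 became 1184 (ComBat-seq then DESeq2), 305 (those populations only), 957 (no fold limit), 40 (no replicate block), 338 (without the shallowest library) and 244 to 1025 with a mouse left out (365 without mouse 2, 1025 without mouse 3, 244 without mouse 4). In 4n-top against 4n-bottom, 2 became 19 (ComBat-seq), 49 (DESeq2), 15 (those populations only), 25 (no filter), 0 (no replicate block), 5 (without the shallowest library) and 0 to 29 (29 without mouse 2). In 4n-bottom against 2n-whole, 81 became 309 (ComBat-seq), 143 (DESeq2), 145 (no filter), 0 (no replicate block) and 49 (without mouse 4) to 120 (without the shallowest library). In 4n-top against 2n-whole, 168 became 595 (ComBat-seq), 329 (DESeq2), 300 (those populations only), 261 (no filter), 2 (no replicate block) and 98 (without mouse 4) to 238. Between mice, 3358 became 2125 (without mouse 3) to 3631 (without the shallowest library), and 4133 with DESeq2. The mouse is the same animal in the labels, and the replicate block changed no call of the 10 clock genes.

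Fold changes that had not passed the test changed sign in 25 fits. Without the replicate block, the log2 fold change in 4n-top against 2n-whole became 0.12 for Per1 and 0.12 for Tef, and in 4n-top against 4n-bottom 0.030 for Per3 and 0.099 for Tef. Tef in 4n-bottom against 2n-whole became -0.0066 (ComBat-seq then DESeq2), -0.013 (DESeq2 size factors) and -0.012 (DESeq2), and Cry2 in 4n-top against 4n-bottom became -0.011 with those populations only. With a mouse left out, values in 4n-bottom against 2n-whole ran from -0.015 to 0.084 for Cry1, -0.076 to 0.12 for Per1 and -0.040 to 0.070 for Tef. In 4n-top against 2n-whole they ran from -0.0069 to 0.11 for Cry1, -0.073 to 0.19 for Per2 and -0.18 to 0.33 for Per3. In 4n-whole against 2n-whole they ran from -0.31 to 0.83 for Dbp, -0.012 to 0.38 for Per2 and -0.12 to 0.018 for Tef, and in 4n-top against 4n-bottom from -0.016 to 0.093 for Cry2, -0.51 to 0.0013 for Per3 and -0.14 to 0.013 for Tef. With all libraries kept, Dbp and Per3 had the lowest mean levels of the clock genes, at 0.58 and 3.70 CPM. They also had the largest SE of the log2 fold change in each of these comparisons. The part of sequencing depth in this was not tested.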
